A study of Mus musculus with 11 samples.

Results

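The Frizzled genes Fzd1 to Fzd10 encode the cell surface receptors for Wnt proteins, and their transcripts were compared between CD34+ and CD34- keratinocyte fractions of mouse back skin. Members were all probe sets whose platform annotation gives exactly 1 gene symbol and whose symbol is one of these 10 genes. There were 26 such probe sets, of the 34945 probe sets with 1 symbol that stand for 18193 genes. CD34+ cells (5 arrays) and CD34- cells (6 arrays) both came from K5-myrAkt(L84) mice, a transgenic line in which the keratin 5 promoter drives a membrane-bound, active form of the kinase Akt in the basal cells of epidermis and follicle. Dorsal keratinocytes were labelled with an antibody against CD34, a surface protein of stem cells in the follicle bulge, and were parted with magnetic beads. The cell type label calls both fractions hair follicle stem cells, whereas the design text uses that name for the CD34+ fraction only. Both fractions carry the transgene, and no other treatment is named. Age and hair cycle stage are not in the labels. Nor do they say that each array stands for its own mouse, so the p-values cover only the spread among these arrays, which may be technical.

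Frizzled proteins are membrane-spanning receptors with an outer cysteine-rich domain that binds Wnt. With the co-receptors Lrp5 and Lrp6 they act through Dishevelled to stabilise beta-catenin, and without them they can act through Dishevelled on cell polarity and movement. In skin, Wnt signals to beta-catenin start hair growth from the bulge and hair germ, while Fzd6 belongs to the planar cell polarity system that aligns mouse hairs. By sequence the family is usually grouped as Fzd1, Fzd2 and Fzd7, as Fzd3 and Fzd6, as Fzd5 and Fzd8, and as Fzd4, Fzd9 and Fzd10.

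The RefSeq promoter table (GRCm38.p6) matched 6 of the 10 genes, namely Fzd1, Fzd4, Fzd5, Fzd7, Fzd9 and Fzd10. The 250 bases before the gene start are shown for Fzd7, whose brighter probe set was higher in CD34+ cells, and for Fzd9, whose only probe set was dim but did not overlap between the fractions. Capitals mark matches, on both strands, to 3 motifs. These were the TCF/LEF words (AACAAAG or ATCAAAG or TACAAAG or TTCAAAG), the GC box (GGGCGG) and the CCAAT box (CCAAT), none of which overlaps another motif here. Fzd7 lies on the plus strand with its window at chr1:59481897-59482146, and Fzd9 on the minus strand with its window at chr5:135251048-135251297.
Fzd7: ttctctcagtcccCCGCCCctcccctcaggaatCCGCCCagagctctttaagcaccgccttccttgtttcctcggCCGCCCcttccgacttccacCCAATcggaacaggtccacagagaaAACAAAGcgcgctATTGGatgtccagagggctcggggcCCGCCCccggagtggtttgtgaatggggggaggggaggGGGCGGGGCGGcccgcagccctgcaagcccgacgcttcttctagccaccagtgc
Fzd9: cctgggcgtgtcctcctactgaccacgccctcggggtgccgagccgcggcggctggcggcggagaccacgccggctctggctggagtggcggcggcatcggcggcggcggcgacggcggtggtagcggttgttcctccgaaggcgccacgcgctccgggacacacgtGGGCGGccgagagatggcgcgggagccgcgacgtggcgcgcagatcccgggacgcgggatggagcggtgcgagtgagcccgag
The Fzd7 window held 1 TCF/LEF match (AACAAAG, starting 130 bases before the gene), 6 GC boxes, 2 of them overlapping, and 2 CCAAT boxes. The Fzd9 window held 1 GC box and neither other motif. Of the 6 Frizzled windows, 1 held a TCF/LEF word, 5 a GC box and 3 a CCAAT box, against 14.8%, 32.7% and 33.8% of all 32851 promoter windows of this length. Such matches are letters in a window and say nothing of binding.

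The receptors did not move as 1 block. Fzd2 rose in CD34+ cells on all 3 of its probe sets, Fzd7 and Fzd3 rose on their brightest probe set, and Fzd6 fell on its brightest. Values are log2 MAS5 signals, differences are CD34+ minus CD34-, and adjusted p-values come from a limma model fitted to the 20967 probe sets left after the dimmest 40% of probe sets with 1 symbol were set aside. A probe set was called at an adjusted p under 0.05. Of the 26 Frizzled probe sets 16 passed that brightness filter, standing for 9 genes, and 5 of them were called higher and 1 lower. Among all tested probe sets 11.0% were called higher and 9.77% lower, and 20.7% were called in either direction. The median difference was 0.47 over the 16 Frizzled probe sets and 0.02 over all tested ones. The difference was above 0 for 13 of the 16 as deposited, for 12 after quantile normalization and for 9 with equal array medians, against 52.0%, 41.8% and 27.1% of all tested probe sets. Quantile normalization and equal medians moved the median difference of all tested probe sets to -0.09 and -0.33, and turned the split of all calls from 2296 higher and 2048 lower to 1381 and 2211, and to 919 and 6235. Cyclic loess normalization gave 1724 and 2046. The sign of several small Frizzled differences turned with the scaling, and these are given with their values.

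**Figure D1:**
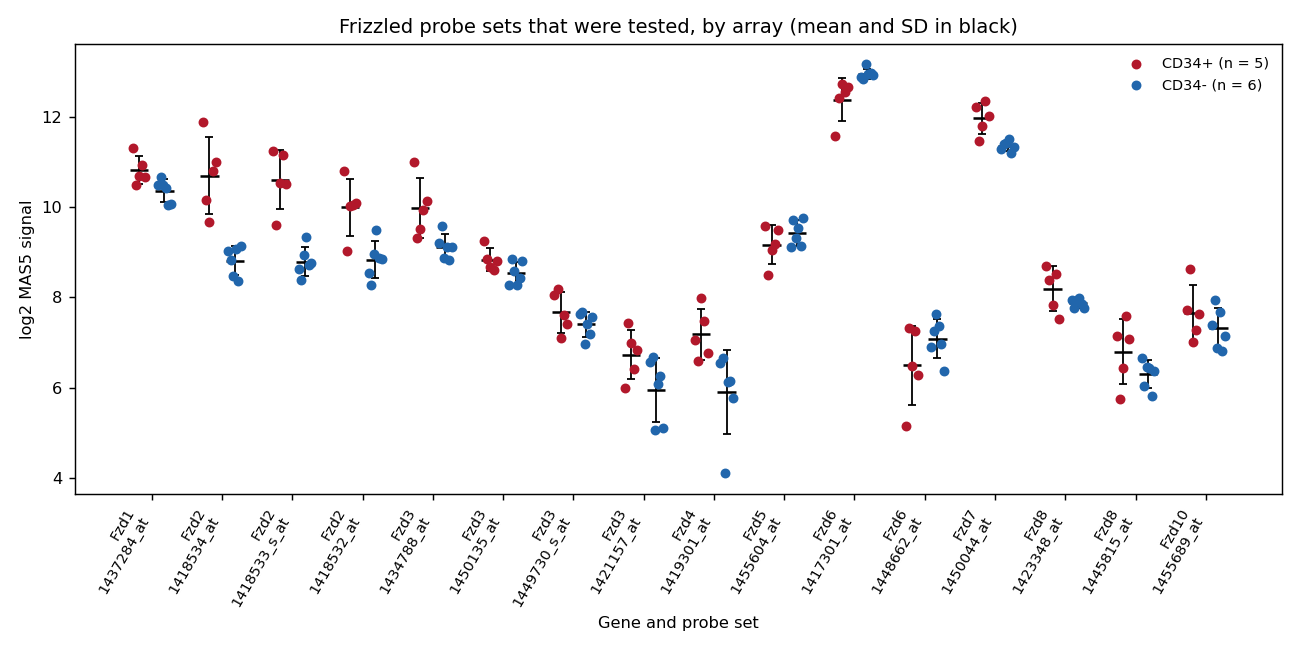
Log2 MAS5 signal (vertical axis) of the 16 tested Frizzled probe sets (horizontal axis) on each CD34+ array (red, left) and CD34- array (blue, right), with group means as black bars and SD as whiskers. On 2 Fzd2 probe sets every CD34+ array lies above every CD34- array, and on the brightest Fzd6 probe set every CD34+ array lies below every CD34- array.

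Fzd2, a receptor used in both the beta-catenin and the polarity branches, had the 2 highest differences among the 16 tested probe sets. Probe set 1418534_at had log2 signals of 11.89, 10.15, 9.66, 10.80 and 11.01 on CD34+ arrays 1 to 5, against a lowest value of 8.36, a median of 8.93 and a highest value of 9.13 on the 6 CD34- arrays. The fractions did not overlap, and CD34+ array 1 stood highest. The means were 10.70 ± 0.85 (SD, n = 5) in CD34+ cells and 8.81 ± 0.33 (SD, n = 6) in CD34- cells, a difference of 1.89 (SE 0.31, adjusted p = 0.00145) or 3.70-fold.

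The second Fzd2 probe set, 1418533_s_at, had 11.25, 9.60, 10.53, 11.15 and 10.52 in CD34+ cells, against 8.38, 8.74 and 9.33 as lowest, median and highest values in CD34- cells. It did not overlap either, and it differed by 1.82 (SE 0.26, adjusted p = 5.85e-04). The third, 1418532_at, had 10.80, 9.02, 10.02, 10.04 and 10.08 in CD34+ cells, against 8.27, 8.87 and 9.50 in CD34- cells. Here CD34+ array 2 lay below the highest CD34- array, and the difference was 1.16 (SE 0.27, adjusted p = 0.0105). Over all tested probe sets, 7.20% lay higher in CD34+ cells without overlap and 6.20% lower, and among the 16 Frizzled ones 2 did so higher and 1 lower. The third probe set differed by 0.66 less than the second (exact two-sided permutation test over the 462 splits of the arrays, adjusted p = 0.0238 over 11 pairs of probe sets of the same gene). That was the single pair past the threshold, so the size of the Fzd2 difference depends on the probe set while its direction does not.

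All 3 Fzd2 calls stayed in each of the 11 fits without 1 array, with a highest adjusted p of 0.0048 for 1418534_at, 0.00206 for 1418533_s_at and 0.0245 for 1418532_at. With equal array medians 1418532_at differed by 0.80 (adjusted p = 0.0546). CD34+ arrays also had a higher actin ratio, the log2 signal at the 3-prime end of actin minus that at its 5-prime end, a measure that grows when RNA or its labelled copies are short. It was 2.90 to 5.25 on CD34+ arrays and 2.19 to 2.76 on CD34- arrays. These ranges did not overlap, so in a model with both the ratio and the fraction their shares cannot be told apart. With that ratio as a covariate the Fzd2 differences were 1.53 (SE 0.50), 1.95 (SE 0.42) and 1.08 (SE 0.44) and none was called, the adjusted p-values being 0.196, 0.0548 and 0.325. In that limma model 0 Frizzled probe sets were called, 4 had an unadjusted p under 0.05, all of them higher, and 124 probe sets of the whole table were called higher and 25 lower.

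Several markers of mesenchymal cells were also higher in CD34+ cells. Of 12 fibroblast and mesenchymal genes with a probe set 6 were tested, and 4 rose (Col1a2 by 3.49, Col3a1 by 4.17, Pdgfra by 1.59 and Dcn by 1.53) while Thy1, which T cells share, fell by 1.20. Col3a1 passed the brightness filter through its CD34+ values, 4 of its 6 CD34- values being under the 40th percentile of their array. Of the 12 genes Vim was the brightest and was not called, with mean log2 signals of 12.39 in CD34+ cells and 11.88 in CD34- cells. A sum of linear signals over the 12 genes thus rests in large part on Vim, and it includes Thy1. That sum was 7758 to 16908 on CD34+ arrays and 4341 to 8760 on CD34- arrays. Over CD34+ arrays 1 to 5 it was 16908, 10397, 7758, 11645 and 9335. All 3 Fzd2 probe sets were also highest on CD34+ array 1. The lowest CD34+ array was array 3 for the sum and for 1418534_at, but array 2 for 1418533_s_at and 1418532_at. Of the 12, 1 lay under the 40th percentile on all CD34+ arrays (Twist2) and 5 on all CD34- arrays. The part of these cells in the Fzd2 difference was not tested. In sorted fractions of this kind, fewer cells of a type and less RNA per cell cannot be told apart.

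**Figure D2:**
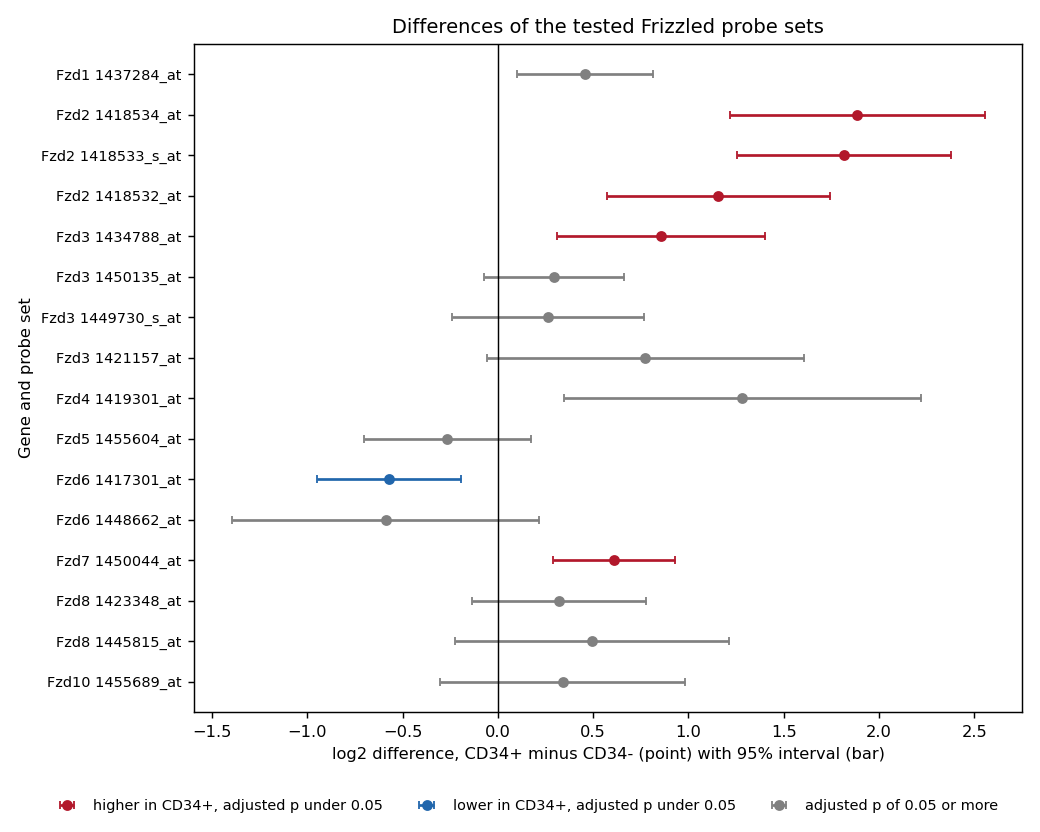
Log2 difference, CD34+ minus CD34- (horizontal axis), of each tested Frizzled probe set (vertical axis) with its 95% interval from the limma model, red where called higher, blue where called lower and grey where not called. The 3 Fzd2 probe sets lie farthest to the right among the called ones, between 1.16 and 1.89, and Fzd6 1417301_at lies left of 0 at -0.57.

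Fzd7 and Fzd1 are the closest relatives of Fzd2. Fzd7, a receptor known from intestinal stem cells, had on 1450044_at log2 signals of 12.22, 11.47, 11.79, 12.35 and 12.01 in CD34+ cells, against 11.19, 11.37 and 11.51 as lowest, median and highest values in CD34- cells. CD34+ array 2 lay just under the highest CD34- array, and the other CD34+ arrays lay above all CD34- arrays. The difference was 0.61 (SE 0.15, adjusted p = 0.0125), which is 1.52-fold. It was called in all 11 fits without 1 array (highest adjusted p = 0.0289), but it was 0.25 with equal array medians (adjusted p = 0.301). With the actin covariate it was 0.77 (adjusted p = 0.161).

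Fzd1 had on 1437284_at 11.31, 10.50, 10.70, 10.93 and 10.66 in CD34+ cells, against 10.04, 10.46 and 10.68 in CD34- cells. Its difference of 0.45 (SE 0.17, 95% interval 0.10 to 0.81) did not pass the threshold (adjusted p = 0.0654). It passed after quantile normalization (0.53, adjusted p = 0.0478), after cyclic loess normalization (0.55, adjusted p = 0.0436) and when CD34+ array 2 was left out (0.53, adjusted p = 0.048). With equal medians it was 0.10 (adjusted p = 0.698). Probe sequences were not analysed here, so it was not checked whether probes of Fzd1, Fzd2 and Fzd7 also bind transcripts of the other two.

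Fzd6 and Fzd3 are paralogs of the polarity branch, and their brightest probe sets moved in opposite directions. Fzd6, which orients hair follicles in mice, had on 1417301_at 11.57, 12.42, 12.73, 12.54 and 12.66 in CD34+ cells, against 12.84, 12.94 and 13.16 as lowest, median and highest values in CD34- cells. The fractions did not overlap, CD34+ array 1 stood far below the rest, and the CD34- arrays lay close together. The means were 12.38 ± 0.47 (SD, n = 5) in CD34+ cells and 12.96 ± 0.11 (SD, n = 6) in CD34- cells, a difference of -0.57 (SE 0.18, adjusted p = 0.0351) or 1.49-fold lower.

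That call was close to the threshold. It was lost in 7 of the 11 fits without 1 array, namely without CD34+ array 2 and without each CD34- array in turn (highest adjusted p = 0.0737), and kept without CD34+ array 1, where the difference was -0.37. When CD34+ arrays 1 and 2 were both left out it was -0.31 (adjusted p = 0.0631). The actin covariate brought it to -0.018 (adjusted p = 0.984), whereas with equal medians it was -0.93 and called (adjusted p = 0.00414). Since the actin ratio did not overlap between the fractions, the covariate fit cannot tell RNA length and fraction apart. The dimmer Fzd6 probe set 1448662_at differed by -0.59 (SE 0.38, adjusted p = 0.273), with CD34+ array 1 again lowest at 5.15, by -0.25 when that array was left out and by 0.22 once the actin covariate was included. With all arrays the test of the 2 Fzd6 differences against each other gave an adjusted p of 0.965 (exact permutation test).

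Fzd3 had 6 probe sets, of which 4 were tested. On the brightest, 1434788_at, the log2 signals were 11.00, 9.31, 9.51, 9.95 and 10.14 in CD34+ cells, against 8.82, 9.12 and 9.59 in CD34- cells. CD34+ arrays 2 and 3 lay within the CD34- range, and the difference was 0.85 (SE 0.26, adjusted p = 0.031). The call was lost in 5 of the 11 fits without 1 array (highest adjusted p = 0.0645), with equal medians (0.50, adjusted p = 0.163) and under the actin covariate (0.54, adjusted p = 0.613). Leaving out CD34+ array 1 gave a difference of 0.60, which was still called. The other tested Fzd3 probe sets were not called. They differed by 0.30 (1450135_at, adjusted p = 0.229), 0.26 (1449730_s_at, adjusted p = 0.444) and 0.77 (1421157_at, adjusted p = 0.164). The first 2 of these turned to -0.060 and -0.092 with equal medians. Probe set 1421157_at passed the brightness filter through its CD34+ values (mean 6.73), its CD34- mean of 5.96 being under the cut of 6.06. No pair of Fzd3 probe sets differed in its difference after adjustment (6 pairs, smallest adjusted p = 0.214).

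Fzd4 lay next to the threshold, Fzd9 was too dim for the test, and Fzd10 was not called. Fzd4, the receptor for norrin in retinal vessels, had on 1419301_at 7.07, 6.59, 7.99, 7.48 and 6.78 in CD34+ cells, against 4.11, 6.14 and 6.66 as lowest, median and highest values in CD34- cells. CD34- array 3 stood apart at 4.11. The difference of 1.28 (SE 0.44, 95% interval 0.35 to 2.22) had an adjusted p of 0.0509. Fzd4 passed the brightness filter through its CD34+ values (mean 7.18), its CD34- mean of 5.90 being under the cut of 6.06. Of its 6 CD34- values 2 were under the 40th percentile of their array, so the size of its difference rests partly on dim values. When low values were floored at the 40th percentile of their array, the difference was 0.99 and passed (adjusted p = 0.00761). That floor was 6.33 to 6.88 on CD34+ arrays and 5.95 to 6.17 on CD34- arrays. The setting thus favours a difference above 0, and its pass does not settle the matter of dim values. The Fzd4 difference also passed with 50 added to the linear signal before log2 (0.79, adjusted p = 0.0316). It passed too when either CD34+ array 2 (1.43, adjusted p = 0.0494) or CD34- array 2 (1.44, adjusted p = 0.0488) was left out. Leaving out CD34- array 3 gave 0.93, and quantile normalization 0.78 (adjusted p = 0.242). Of 10 markers of endothelial cells, which use Fzd4, 3 were tested, with adjusted p-values of 0.376 to 0.787, and 3 were under the 40th percentile on all CD34+ arrays and 5 on all CD34- arrays. Their summed linear signal was 487 to 859 on CD34+ arrays and 377 to 569 on CD34- arrays.

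Fzd9 had 1 probe set, 1427529_at, with 5.43, 7.12, 6.64, 7.60 and 6.23 in CD34+ cells, against 2.22, 2.79 and 4.15 in CD34- cells. Every CD34+ array lay above every CD34- array, by 1.28 at the nearest point, and the means were 6.60 ± 0.83 (SD, n = 5) in CD34+ cells and 2.98 ± 0.77 (SD, n = 6) in CD34- cells. Its mean lay at percentile 22.0 of all probe sets with 1 symbol, so it was not tested with the filter. All 6 CD34- values and 2 of the 5 CD34+ values were under the 40th percentile of their array. The deposited difference was 3.62, it lay between 3.00 and 3.27 under the 3 other scalings and was 4.35 with the actin covariate. It was 1.37 with 50 added before log2 and 0.81 with low values floored. In the limma fit without a filter its adjusted p was 9.08e-04, with 11.7% of all 34945 probe sets called. Among the 13978 probe sets set aside as dim, 3.03% lay higher in CD34+ cells without overlap and 0.186% lower, and 78.6% had a difference above 0. Dim values as a whole thus stood higher on CD34+ arrays, whose 40th percentile was 6.33 to 6.88 against 5.95 to 6.17 on CD34- arrays.

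Fzd10 had on 1455689_at 7.73, 8.63, 7.00, 7.27 and 7.63 in CD34+ cells, against 6.82, 7.27 and 7.95 in CD34- cells. The fractions overlapped over most of their range, and the difference was 0.34 (SE 0.30, 95% interval -0.30 to 0.98, adjusted p = 0.437). It was 0.095 when CD34+ array 2 was left out, -0.0155 with equal medians and -0.0135 when CD34+ arrays 1 and 2 were left out.

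**Figure D3:**
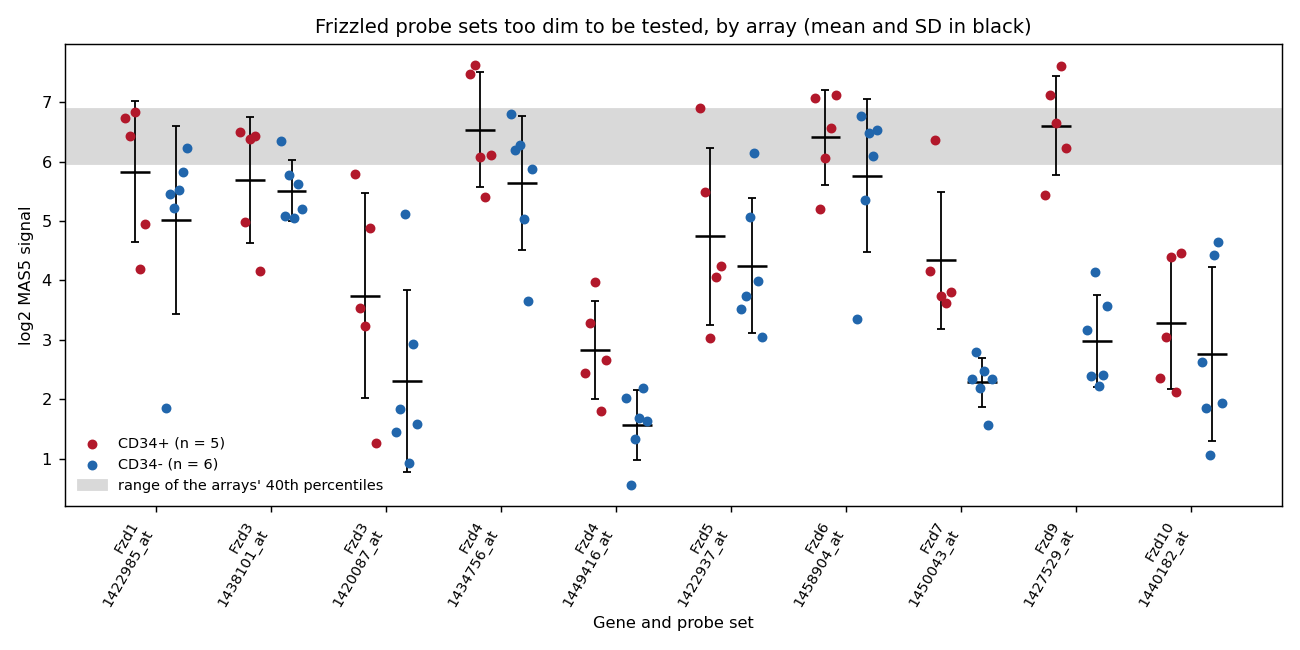
Log2 MAS5 signal (vertical axis) of the 10 Frizzled probe sets set aside as dim (horizontal axis) on CD34+ arrays (red, left) and CD34- arrays (blue, right), with means and SD in black; the grey band spans the 40th percentiles of the 11 arrays, 5.95 to 6.88. Fzd9 and Fzd7 1450043_at do not overlap between the fractions, and their CD34- values all lie under the band.

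Fzd5 and Fzd8 were not called. Fzd5, a receptor that works in epithelia of the gut and eye, had on 1455604_at 9.59, 8.50, 9.06, 9.18 and 9.50 in CD34+ cells, against 9.11, 9.42 and 9.77 as lowest, median and highest values in CD34- cells, a difference of -0.27 (SE 0.21, 95% interval -0.70 to 0.17, adjusted p = 0.369). It was -0.62 with equal medians (adjusted p = 0.0563) and -0.099 when CD34+ array 2 was left out. Fzd8, its close relative, had on 1423348_at 8.70, 8.39, 7.83, 8.51 and 7.52 in CD34+ cells, against 7.76, 7.89 and 7.99 in CD34- cells. The CD34+ arrays lay on both sides of a narrow CD34- range, and the difference was 0.32 (SE 0.21, 95% interval -0.14 to 0.78, adjusted p = 0.296), which was -0.036 with equal medians. Its second probe set 1445815_at differed by 0.49 (SE 0.34, adjusted p = 0.305), and by 0.68 with low values floored (adjusted p = 0.029). The floor was higher on CD34+ arrays, and it raised CD34+ array 2 from 5.74 to 6.88. That is above the highest CD34- value of 6.665, so the call with the floor rests on the setting.

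The 10 dim Frizzled probe sets all had a difference above 0 as deposited, as had 78.6% of all dim probe sets. With equal medians 9 of the 10 did, after quantile or cyclic loess normalization 7, and with the actin covariate 6. For 2 of them the fractions did not overlap, with CD34+ higher, against 3.03% of all dim probe sets higher and 0.186% lower. Besides Fzd9 this was Fzd7 1450043_at, with 4.16, 6.36, 3.74, 3.62 and 3.81 in CD34+ cells, against 1.57, 2.34 and 2.80 in CD34- cells. All 11 values lay under the 40th percentile of their array, and the difference of 2.05 was 0.48 with low values floored, which is then the difference of the percentiles themselves. The other dim probe sets differed by 0.81 (Fzd1 1422985_at), 0.18 and 1.43 (Fzd3 1438101_at and 1420087_at), 0.90 and 1.27 (Fzd4 1434756_at and 1449416_at), 0.49 (Fzd5 1422937_at), 0.64 (Fzd6 1458904_at) and 0.52 (Fzd10 1440182_at), with overlap in each. Without a filter the adjusted p-values of these 8 lay between 0.192 and 0.842.

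Whether the members differed from one another was tested on the difference between 2 brightest probe sets within each array, over all 36 pairs of the 9 tested genes. In 16 pairs the difference between fractions differed (exact two-sided permutation test, adjusted p under 0.05 over the 36 pairs, smallest unadjusted p possible 0.00216). Fzd2 differed from 7 of its 8 partners, by between 1.03 (Fzd3) and 2.46 (Fzd6), and not from Fzd4 (0.60, adjusted p = 0.413). Fzd6 differed from 6 partners, namely Fzd1, Fzd2, Fzd3, Fzd4, Fzd7 and Fzd8, and Fzd5 from 5. Fzd7 stood 0.87 above Fzd5 and 1.18 above Fzd6 (adjusted p = 0.00778 for each), but not apart from Fzd1 (0.15, adjusted p = 0.337), Fzd3 or Fzd8. A shift of a whole array cancels in such a comparison. Between 14 and 16 pairs passed under other scalings, the added 50 or the floor, between 12 and 18 without 1 array, and 13 when CD34+ arrays 1 and 2 were left out. Equal medians only shift whole arrays, so that scaling could not change the count. The pair tests were not run with the actin covariate, under which no Frizzled probe set was called. These tests were added after the values were seen.

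The members also varied among the CD34+ arrays. The SD was larger in CD34+ than in CD34- cells for 13 of 16 tested Frizzled probe sets, as for 77.5% of all tested ones. Over the 16 Frizzled probe sets the median SD was 0.56 in CD34+ cells and 0.30 in CD34- cells. Over all tested probe sets it was 0.42 and 0.26. Deviations from the group means were used to describe which members moved together across the 11 arrays. The brightest Fzd2 and Fzd3 probe sets deviated together (r = 0.877), Fzd7 went most with Fzd2 1418533_s_at (r = 0.878), and Fzd6 1417301_at went against Fzd3 (r = -0.768) and against Fzd2 1418534_at (r = -0.741). Whether the Fzd7 and Fzd2 probes bind each other's transcripts was not checked. Both values of a point come from the same array, so its RNA length and scaling enter both sides, and CD34+ array 1 had the highest Fzd2 1418534_at and Fzd3 values and the lowest Fzd6 value of its fraction.

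The genes with the most similar deviations, given as a description over 11 arrays and drawn from 20967 probe sets, differed from probe set to probe set. For Fzd2 1418534_at they were Klhl7 (r = 0.976), Dennd4a (0.960) and Serf1 (0.959), for 1418533_s_at Matr3 (0.924), Tox (0.910) and Sh3gl1 (0.910), and for 1418532_at Ackr4 (0.954), St3gal2 (0.925) and Dennd1a (0.914). For Fzd3 1434788_at they were Anxa6 (0.987), Cdc42ep3 (0.976) and Mylk (0.975). For Fzd6 1417301_at they were Timeless (0.986), Tmem43 (0.980) and Nfkbil1 (0.978), and for Fzd7 1450044_at Stxbp4 (0.967), Slc41a3 (0.946) and Crem (0.944). Fzd6 1417301_at and Fzd3 1434788_at deviated most on CD34+ array 1, by -0.82 and 1.02. Their r values thus rest in large part on that 1 array. Of these 18 genes Cdc42ep3 rose by 1.62 and Tmem43 fell by 0.81 between the fractions, and the others were not called.

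**Figure D4:**
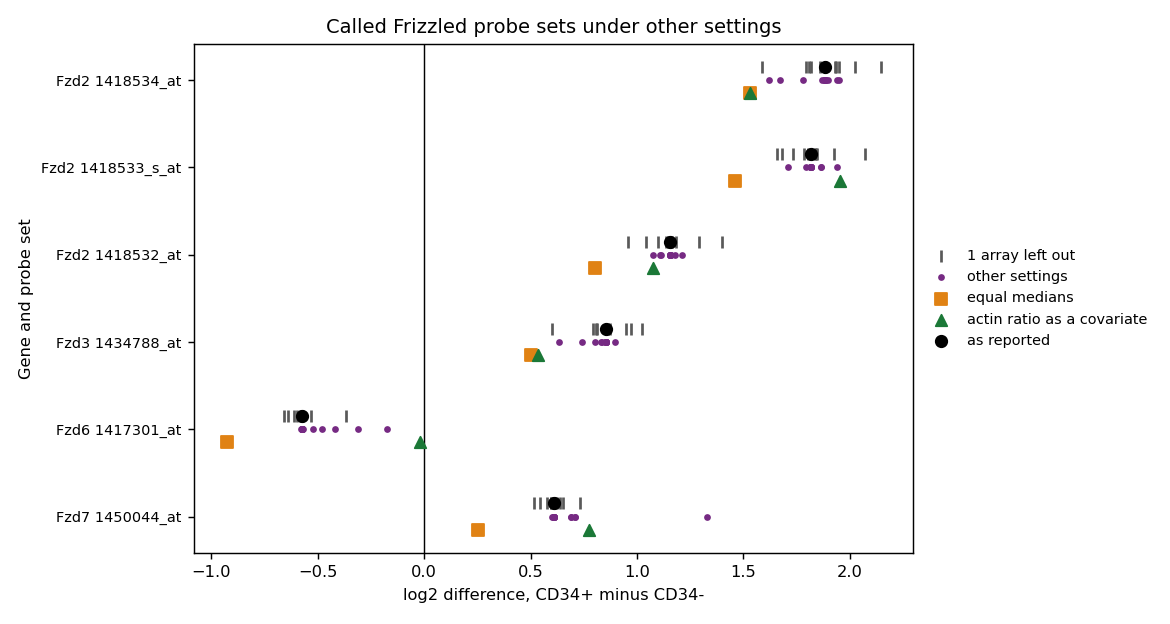
Log2 difference, CD34+ minus CD34- (horizontal axis), of the 6 called Frizzled probe sets (vertical axis) as reported (black circle), without each array in turn (grey ticks), with equal array medians (orange square), with the actin covariate (green triangle) and under the other settings (purple dots). All Fzd2 values stay between 0.80 and 2.15, while Fzd6 runs from -0.93 to -0.02; the purple dot of Fzd7 at 1.33 is the mean with its dim probe set.

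Around the receptors, 4 Wnt ligand genes fell and 4 genes of secreted Wnt regulators rose in CD34+ cells. Each gene here is given by its brightest probe set, and of all 11891 genes tested in this way 22.1% were called, 11.6% higher and 10.5% lower. By this measure 3 Frizzled genes of the 9 tested were called higher and 1 lower. Of 19 Wnt ligand genes 11 were tested, 4 fell and none rose, with a median difference of -0.83. Wnt3a fell by 1.03 (SE 0.28) and Wnt10a by 0.65 (SE 0.22), and the Wnt10a call was lost after quantile normalization (adjusted p = 0.071). With dim probe sets let in, 2 ligand genes were called higher and 3 lower.

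Among Frizzled co-receptors and surface partners 1 gene was called. Of 12 genes 6 were tested and 1 rose, Ror2, a receptor for Wnt5a, with 2.21 (SE 0.66, adjusted p = 0.0312), which was not called after quantile normalization (1.72, adjusted p = 0.115). Ror2 passed the filter through its CD34+ values, and all 6 CD34- values were under the 40th percentile of their array, so the size of its difference rests on dim values. Lrp6 differed by 0.27 (adjusted p = 0.18), Ryk by -0.10 (adjusted p = 0.607) and the Frizzled-related hedgehog receptor gene Smo by -0.03 (adjusted p = 0.895). Lrp5 was too dim to be tested. The median of the 6 was -0.07.

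Genes that set how much Frizzled stays at the surface moved both ways. Of 7 genes 6 were tested, 2 rose and 1 fell (median 0.14). Shisa2, of a family known from Xenopus to hold Frizzled in the endoplasmic reticulum, rose by 4.00 (SE 0.41, adjusted p = 4.7e-05), and Lgr5, which binds R-spondin, also rose. Znrf3, a ubiquitin ligase that removes Frizzled from the membrane, fell by 0.66 (SE 0.18, adjusted p = 0.0196), and its relative Rnf43 differed by -0.08 (adjusted p = 0.825). The R-spondin gene Rspo3, whose product blocks these ligases, fell by 1.16 (SE 0.18, adjusted p = 8e-04).

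Secreted Frizzled-related proteins carry the Wnt-binding domain without the membrane part. Of 5 genes for proteins with such a domain 2 were tested and both rose, Sfrp1 by 1.29 (SE 0.24) and Sfrp4 by 1.25 (SE 0.40), Sfrp4 with a call lost after quantile normalization (0.92, adjusted p = 0.107). Among 12 other secreted regulators 5 were tested, and 2 rose and 1 fell, with Wif1, which binds Wnt, at 3.45 (SE 0.27) and Rspo3 lowest.

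Inside the cell, 18 of 20 genes of the beta-catenin branch were tested, 4 rose and 2 fell (median 0.09). Tcf7l1, a transcriptional repressor of follicle stem cells, rose by 1.21 (SE 0.22), and Axin1, a scaffold of the beta-catenin destruction complex, fell by 0.49 (SE 0.16). The calls of both genes that fell were lost after quantile normalization. Of 10 Wnt feedback target genes 7 were tested, 1 rose and 2 fell (median -0.44). The Dishevelled-binding gene Nkd1 rose by 1.59 (SE 0.26) and the receptor gene Tnfrsf19 fell by 1.45 (SE 0.29). Of the 6 CD34- values of Nkd1, 3 were under the 40th percentile of their array, so the size of its difference rests partly on dim values.

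Of 16 planar cell polarity genes, the branch of Fzd3 and Fzd6, 12 were tested, 2 rose and 4 fell (median -0.32). Celsr1, a cadherin needed for hair alignment in mice, fell by 1.09 (SE 0.21, adjusted p = 0.00391), and Dact1, which binds Dishevelled, rose by 2.58 (SE 0.62, adjusted p = 0.0111). Dact1 too passed the filter through its CD34+ values, with 4 of 6 CD34- values under the 40th percentile of their array. With the actin covariate limma called 0 genes of the ligand, co-receptor, Frizzled-like, beta-catenin, feedback and polarity lists, whereas the 2 turnover genes that rose, Shisa2 and Lgr5, remained called.

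**Figure D5:**
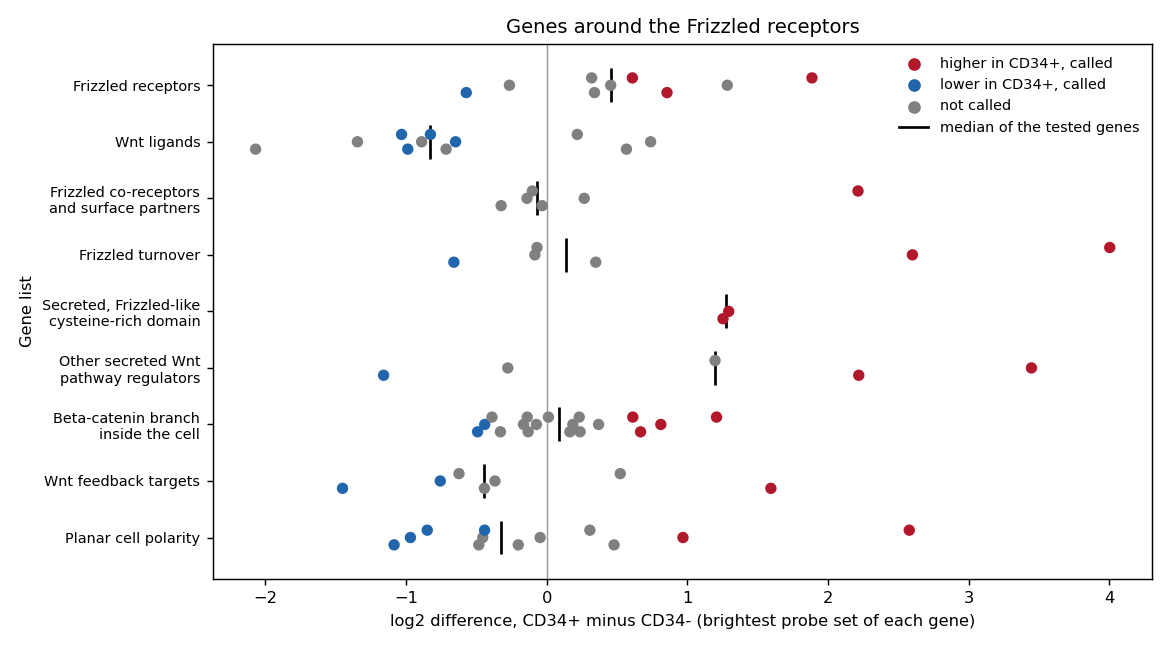
Log2 difference, CD34+ minus CD34- (horizontal axis), of the brightest probe set of each tested gene in 9 lists (vertical axis); red points were called higher, blue points lower, grey points were not called, and the black bar is the median of the list. The Frizzled median lies at 0.45 and the Wnt ligand median at -0.83.

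As checks of the fractions, Cd34 signals averaged 11.83 ± 1.17 (SD, n = 5) on the log2 scale in CD34+ cells and 4.20 ± 1.57 (SD, n = 6) in CD34- cells. Krt5, a basal keratin, averaged 14.94 ± 0.27 in CD34+ cells and 15.02 ± 0.17 in CD34- cells. Of 10 bulge markers 7 rose and 1 fell, Itga6, which fell by 0.53. The 7 include Cd34 itself, on which the cells were sorted. Of 6 basal epidermis markers 2 fell, Itga6 and Trp63 (-0.38), and of 7 suprabasal markers 2 rose and 1 fell, with Lor at 1.02 and Calm4 at -0.87. Krt15 (0.47), Krt10 (0.36) and Vim (0.51) were the brightest of their lists and were not called. Of 8 T cell markers with a probe set 7 were tested and 6 fell, Cd7 most (-3.85). Cd7 passed the brightness filter through its CD34- values, 4 of its 5 CD34+ values being under the 40th percentile of their array. The summed linear signal of the 8 T cell markers was 451 to 1714 on CD34+ arrays and 3051 to 5170 on CD34- arrays. Of 10 tested markers of antigen presenting and myeloid cells 5 rose and 1 fell, with Csf1r at 1.20, H2-Aa at 0.95 and Ptprc at -1.81. Of 8 melanocyte markers 1 rose, Mitf (1.42), and 1 fell, Kit (-1.33), while Dct, the brightest, differed by -0.50 (adjusted p = 0.409). The smooth muscle gene Acta2 rose by 2.05. The endothelial gene Egfl7, the brightest of its list, differed by -0.22 (adjusted p = 0.669). The other endothelial markers with a probe set differed by 0.07 (Esam) to 2.10 (Pecam1), with Esam and Pecam1 too dim to be tested. The part of these cell types in the Frizzled differences was not tested.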

How the data were processed

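Per the submitters' processing notes the authors made the values with MAS5, whose version is not given in the sources used here. Deposited values were taken to be log2 signals, since their linear means, with 2% trimmed at each end, lay at 500.002 to 500.004 on all 11 arrays. Without detection calls, low values could only be called dim. No further normalization was applied. Of 45101 probe sets, 64 were controls, 932 had several gene symbols and 9160 had none in the platform annotation. Symbols were updated through the gene identifier for 34741 probe sets of the 34945 with 1 symbol (GRCm38.p6). The dimmest 40% by mean log2 signal (under 6.06) were set aside, and 20967 were fitted with limma 3.58.1 in R 4.3.3 (linear model, intensity trend, prior degrees of freedom 5.51), with Benjamini-Hochberg adjustment over all of them. Probe sets were analysed one by one. The number of arrays limits the precision, with a median SE of 0.22. No 2 arrays held identical values (highest correlation 0.97).

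Named genes were the 10 members, Cd34 and Krt5, the called gene with the highest and that with the lowest difference in each list, the brightest gene of each marker list, and the 3 genes with the most similar deviations for each called Frizzled probe set. Other list genes that the text names were chosen with their values in view. Members and lists were chosen with earlier results of these data known. On simulated data (20967 probe sets, CD34+ against CD34-), limma called 12, 28, 46 and 48 of 50 probe sets changed 1.5-fold, 2-fold, 4-fold and 8-fold, with 14 false calls. The simulated noise was independent and normal, with the same SD in both fractions. In the data the SD was larger in CD34+ cells for 77.5% of tested probe sets, so these counts need not hold for the real arrays. Alternatives were other scalings, filters, offsets, moderation, array weights, an exact permutation test, 1 value per gene, the replicate number as a block, the actin ratio as a covariate, and leaving out arrays.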

Additional observations from a re-analysis of the deposited data

Results flagged for a closer look

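In 4 of 52 groups of Frizzled values (26 probe sets in each fraction) 1 array stood apart from the rest of its fraction by Dixon's test, which flags about 1 in 20 groups by chance. On Fzd6 1417301_at CD34+ array 1 had a log2 signal of 11.57, against 12.42 to 12.73 on the other CD34+ arrays, and the difference without it was -0.37. On Fzd4 1419301_at CD34- array 3 had 4.11, against 5.78 to 6.66 on the other CD34- arrays, and the difference without it was 0.93. On the dim probe set Fzd7 1450043_at CD34+ array 2 had 6.36, against 3.62 to 4.16, and the difference without it was 1.55. On the dim probe set Fzd1 1422985_at CD34- array 1 had 1.86, against 5.22 to 6.23, and the difference without it was 0.18. CD34+ arrays 1 and 2 had the highest actin ratios, 5.25 and 4.56. The part of RNA length in these values was not tested.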

How the results depend on the processing

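The count of Frizzled probe sets called higher, 5 as reported, was 4 to 7 without 1 array, 2 with equal array medians, 8 with values under the 40th percentile raised to it, 3 with 1 probe set per gene, 2 with the mean of the probe sets of a gene, 0 with the actin ratio as a covariate (limma, 4 at an unadjusted p under 0.05), 2 at an adjusted p under 0.01 and 3 with at least a 2-fold difference. The count called lower, 1 as reported, was 0 to 1 without 1 array, and 0 with cyclic loess normalization, with moderation without a trend, without CD34+ arrays 1 and 2, at an adjusted p under 0.01 and with at least a 2-fold difference, with 2, 1 and 1 lower at an unadjusted p under 0.05 in the first 3 of these limma fits. It was also 0 with the mean of the probe sets of a gene and under the actin covariate, where 0 were lower at an unadjusted p under 0.05. The exact permutation test called 6 higher and 1 lower, against 2379 and 2162 of all probe sets. With values under the 40th percentile raised to it, 3259 of all probe sets were called higher and 2288 lower. That percentile was itself higher on CD34+ arrays, so the rise to 8 is no result about the Frizzled genes alone.

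Over all probe sets, 2296 were called higher and 2048 lower. The higher count was 1597 to 2345 without 1 array, 1381 after quantile normalization, 919 with equal medians, 1431 with the dimmest 60% left out, 1350 with 1 probe set per gene, 973 with the mean of probe sets, 124 with the actin ratio, 1520 without CD34+ arrays 1 and 2, 859 at an adjusted p under 0.01 and 1065 at 2-fold. The lower count was 1360 to 2235 without 1 array, 6235 with equal medians, 1347 with 1 probe set per gene, 783 with the mean of probe sets, 25 with the actin ratio, 1361 without CD34+ arrays 1 and 2, 652 at an adjusted p under 0.01 and 456 at 2-fold.

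No called Frizzled difference changed sign. Among those not called, with equal medians Fzd3 1450135_at turned to -0.060, Fzd3 1449730_s_at to -0.092, Fzd8 1423348_at to -0.036 and Fzd10 1455689_at to -0.0155. With the actin covariate they turned to -0.051, -0.21, -0.036 and -0.088, and Fzd6 1448662_at to 0.22. Fzd3 1449730_s_at turned to -0.032 after quantile normalization and -0.04 without CD34+ arrays 1 and 2, where Fzd10 1455689_at turned to -0.0135. Fzd5 turned to 0.11 with the mean of its probe sets. Among the other named genes, Axin1 turned to 0.17 and Egfl7 to 0.63 with the mean of probe sets, Egfl7 to 0.053 with low values raised and, without CD34+ array 5, to 0.070 (it lay between -0.47 and 0.070 without 1 array), Krt15 to -0.026 after quantile normalization and -0.044 with the actin covariate, and Krt10 to -0.12 after quantile normalization. The causes were not tested.

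Numbers 1 to 5 occur in both fractions, but the labels do not say that they pair arrays. Deviations of same-numbered arrays correlated at 0.02 to 0.18, over 0.1 for 1 of 5 pairs, and no CD34+ array correlated best with its own number. With the replicate number as a block, 4 Frizzled probe sets were called higher and 1 lower, Fzd3 1434788_at losing its call (0.85, adjusted p = 0.0552), and 1610 probe sets of the table were called higher and 1424 lower. Signal near the floor limits Fzd9 and the other dim probe sets, whose differences depend on how low values are treated.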

Other observations

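Fzd10os is a long non-coding RNA gene next to Fzd10. Its brighter probe set, 1441338_at, averaged 8.46 ± 0.59 (SD, n = 5) on the log2 scale in CD34+ cells and 8.68 ± 0.10 (SD, n = 6) in CD34- cells, a difference of -0.22 (limma adjusted p = 0.52). Its dimmer probe set, 1444013_at, was not tested and differed by 1.28, with 4 of 5 values in CD34+ cells and all 6 in CD34- cells below the 40th percentile of their array. This gene was chosen after its values were seen.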
